A study of Mus musculus with 55 samples.

Results

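The neurons described here were grouped by whether their own RNA held the transcript of Drd1, the gene of the dopamine D1 receptor. Each was a pyramidal neuron from mouse prefrontal cortex whose cytosol was drawn into a patch pipette, and the labels call each a D1 or a D2 cell. Cells were chosen by the measured reads: among the 54 cells that passed quality control, of 55 in all, 34 had at least 4000 gene symbols with a read, and 7 of these had at least 1 read of Drd1 while 27 had none. The 4 labelled groups were Fmr1-/y D1 cells (6 of the 34, aged 31 and 32 days), Fmr1-/y D2 cells (6, aged 32 days), wild-type D1 cells (9, aged 28 to 34 days) and wild-type D2 cells (13, aged 29 to 35 days). Fmr1-/y mice lack FMRP, an RNA-binding protein, and model fragile X syndrome. All D1 cells carry the side number 2 in the labels and all D2 cells the number 1, so that label and side cannot be told apart. The wild-type cells are labelled only as having no knockout, with no strain given. The labels name neither the way a neuron was identified as D1 or D2 nor the animal of a cell, so each class of cells counts as 1 sample and the differences below carry no test. Errors are SDs between cells, and intervals cover the counting of cells alone.

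The D1 receptor is a G protein-coupled receptor that raises cyclic AMP and activates protein kinase A, and D2 receptors act in the opposite direction. In the prefrontal cortex D1 receptors are found on many pyramidal neurons and interneurons, and dopamine acting on them is known for its part in working memory. Deep-layer pyramidal neurons include cells that project to subcortical targets through the pyramidal tract and intratelencephalic cells that project within the telencephalon. The transcription factor genes Bcl11b and Fezf2 are widely used to mark the pyramidal tract class.

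Drd1 lies on the minus strand of chromosome 13 of GRCm38 (chr13:54051183-54055705 in GENCODE vM21). The promoters of Drd1 and of Rasl10a, the gene with the highest Pearson correlation with Drd1 over the 34 cells, are shown 5′ to 3′ from 250 bases before to 50 bases after each RefSeq start in GRCm38.p6, with GGGCGG, the GC-box letters, in capitals on either strand.
Drd1, chr13:54055609-54055908, minus strand: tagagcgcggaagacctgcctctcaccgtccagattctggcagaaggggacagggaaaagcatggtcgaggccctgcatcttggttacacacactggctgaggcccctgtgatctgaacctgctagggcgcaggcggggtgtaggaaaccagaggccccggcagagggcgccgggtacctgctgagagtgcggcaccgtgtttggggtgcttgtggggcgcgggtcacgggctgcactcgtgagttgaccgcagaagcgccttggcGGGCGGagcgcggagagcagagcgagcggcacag
Drd1, other start, chr13:54054731-54055030, minus strand: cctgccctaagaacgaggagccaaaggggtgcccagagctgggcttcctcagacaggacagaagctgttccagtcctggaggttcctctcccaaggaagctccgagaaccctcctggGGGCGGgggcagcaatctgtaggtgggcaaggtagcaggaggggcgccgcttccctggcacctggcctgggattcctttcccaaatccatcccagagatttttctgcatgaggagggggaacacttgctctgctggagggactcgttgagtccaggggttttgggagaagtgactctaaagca
Rasl10a, chr11:5057878-5058177, plus strand: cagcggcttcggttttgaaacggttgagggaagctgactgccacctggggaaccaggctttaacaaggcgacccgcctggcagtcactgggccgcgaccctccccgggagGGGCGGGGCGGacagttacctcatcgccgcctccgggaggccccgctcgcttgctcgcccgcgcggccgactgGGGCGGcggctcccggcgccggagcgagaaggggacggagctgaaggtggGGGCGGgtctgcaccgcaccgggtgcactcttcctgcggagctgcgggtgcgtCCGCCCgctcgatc
Each Drd1 window held GGGCGG 1 time, and the Rasl10a window held it 5 times, with overlapping copies counted and its reverse complement CCGCCC included. The letters occur in 35.7% of 32851 RefSeq promoter windows of the same length. Neither TGACG, the core of the cyclic AMP response element (20.8% of windows), nor TATAAA (13.6%), was in these windows on either strand. GC content was 65.7% and 59.3% in the Drd1 windows and 72.3% in that of Rasl10a, against a median of 52.7%.

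Drd1 had at least 288 reads in each of the 7 cells, and it was found under both labels. Its rank by reads varied, from 857 among 6047 symbols with a read in wild-type D1 cell 8 to 4277 among 6706 in Fmr1-/y D2 cell 2. Among wild-type D1 cells, Drd1 had 1057 reads in cell 8, 513 in cell 12, 397 in cell 13 and 2866 in cell 15. The wild-type D2 cell 3 had 816 reads, and the Fmr1-/y D2 cells 1 and 2 had 447 and 288. Scaled to a common total of 1000000 gene reads per cell (CPM), these were 337, 194, 79.0 and 275 in the wild-type D1 cells, 130 in the wild-type D2 cell, and 78.2 and 29.8 in the Fmr1-/y D2 cells, with a mean of 160 ± 113 (SD, n = 7 cells). No cell of the 34 lay between 0 and 288 reads, so a minimum of 10 reads in place of 1 gave the same classes. Another deposited table, counted by Ensembl identifier, held the same number of Drd1 reads in each of these 7 cells.

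**Figure D1:**
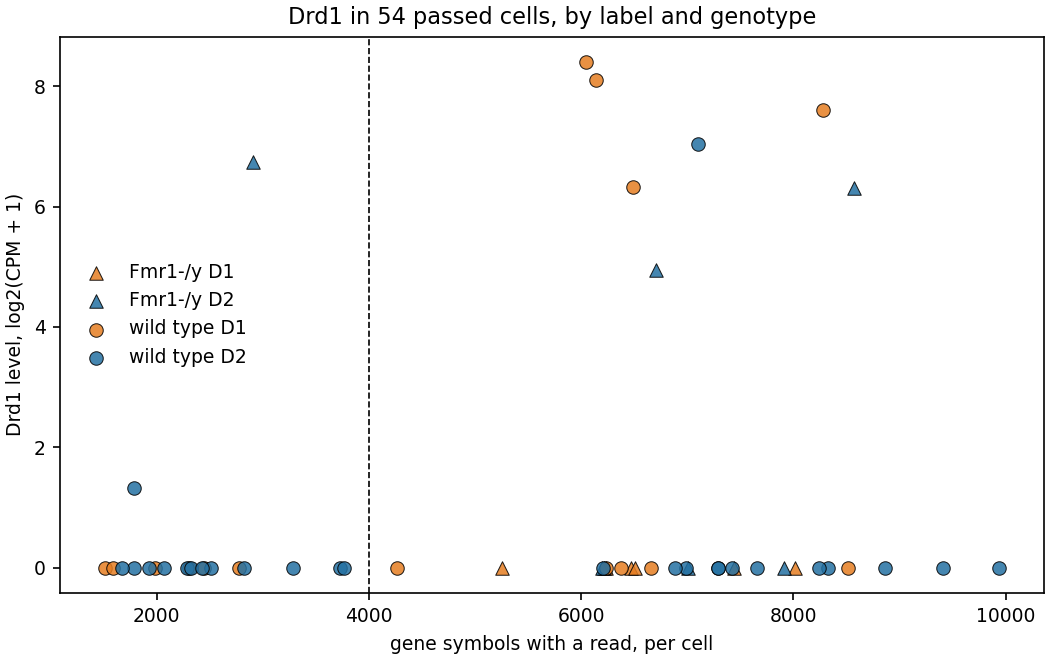
Drd1 level as log2(CPM + 1) against the number of gene symbols with a read in each of the 54 passed cells, coloured by label and shaped by genotype, with a dashed line at 4000 symbols. The 7 cells with Drd1 reads to the right of the line stand well apart from the 27 cells at 0, and carry both labels.

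Over both genotypes, the share of cells with a Drd1 read did not follow the labels closely. It was 4 of 15 D1 cells (26.7%, exact 95% interval 7.79 to 55.1%) against 3 of 19 D2 cells (15.8%, 3.38 to 39.6%), and these intervals overlap widely. By genotype, none of 6 Fmr1-/y D1 cells had a read, which leaves an exact upper limit of 45.9%, and 4 of 9 wild-type D1 cells had one (44.4%, 13.7 to 78.8%). The order was the other way round among D2 cells, with 2 of 6 Fmr1-/y cells against 1 of 13 wild-type cells (7.69%). Within wild-type cells the share was thus higher under the D1 label, and within Fmr1-/y cells under the D2 label. Cells with Drd1 reads occurred at 29, 30, 31, 32 and 34 days, 1 at each age apart from 2 at 31 days and 2 at 32 days. Over all 54 passed cells the shares were 4 of 21 D1 cells and 5 of 33 D2 cells.

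Transcripts of the other dopamine receptors gave no alternative division of the cells. Drd2, Drd3 and Drd4 had no read in any of the 34 cells, those labelled D2 included. Drd5, the other receptor that raises cyclic AMP, had at most 4 reads in a cell with Drd1 reads (5 of 7 cells, 10 reads in all) and at most 16 in a cell without (11 of 27 cells, 52 reads in all). It also shares 1531 of its exon bases with the antisense gene Gm26560, and whether counting used strand is not given. The Fmr1 transcript had no read in the 12 Fmr1-/y cells and was read in 18 of 22 wild-type cells.

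Sequencing depth overlapped between the classes. Cells with Drd1 reads had 2644138 to 10427261 gene counts (median 5712484), and cells without had 2002287 to 10673072 (median 4667820). The number of symbols with a read was 6047 to 8574 (median 6706) in cells with Drd1 reads and 4266 to 9938 (median 7007) in cells without. Thinned to the smallest total of 2002287 counts, the 7 cells would still hold 59.6 to 675 expected Drd1 reads. Mitochondrial genes took a median of 1.66% of counts in cells with Drd1 reads and 2.00% in cells without. The general pyramidal markers, such as Slc17a7, the vesicular glutamate transporter gene, and Camk2a, were read in both classes alike, with scores (the mean log2(CPM + 1) over the list) of 7.49 ± 0.59 in cells with Drd1 reads and 7.32 ± 0.58 in cells without.

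Genes were compared by the difference in mean log2(CPM + 1) between cells with and without Drd1 reads, with each cell weighted equally. Among 11904 genes that averaged 1 CPM or more and were read in 10% or more of these 34 cells, 635 (5.33%) were at least 2 log2 units higher in cells with Drd1 reads and 578 (4.86%) at least 2 units lower. Because many genes are at 0 in many cells, such a difference mostly reflects in how many cells a gene was read, and it can exceed the ratio of mean CPM by far. The median over all these genes was -0.02, and none had classes that did not overlap. The genes named next had to differ in 1 direction in each of the 3 groups of label and genotype that held both classes, and were ranked by the smallest difference left when each cell with Drd1 reads was left out. They are the extremes of this comparison, so that their size and shared direction are a description.

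Rasl10a, which encodes a small GTPase of the Ras family, had the largest difference among the named genes and the highest Pearson correlation with Drd1. It had 589, 93.4, 627 and 267 CPM in the wild-type D1 cells 8, 12, 13 and 15, 202 CPM in the wild-type D2 cell 3, and 97.3 and 34.0 CPM in the Fmr1-/y D2 cells 1 and 2. Among the 27 cells without Drd1 reads it was read in 10, with a median of 0 and a highest value of 126 CPM. Every cell with Drd1 reads thus had Rasl10a, and 4 of them lay above the highest cell without. The mean was 273 CPM in cells with Drd1 reads and 17.9 CPM in cells without. On the log2(CPM + 1) scale it was 7.51 ± 1.51 in cells with Drd1 reads and 1.67 ± 2.64 in cells without, a difference of 5.84 that ranged from 5.54 to 6.23 when any of the 7 cells was left out. Rasl10a lies at chr11:5058128-5060385 and shares 14 exon bases with Gas2l1 on the other strand.

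The rule named 12 genes as higher, Rasl10a among them. Gnb4, a beta subunit of heterotrimeric G proteins, averaged 181 CPM in cells with Drd1 reads and 34.7 CPM in cells without, and was read in 7 of 7 and 13 of 27 of them, although wild-type D1 cell 12 held only 0.38 CPM. Itpk1, an inositol phosphate kinase, averaged 157 and 20.9 CPM in cells with and without Drd1 reads and was read in 6 of 7 and 10 of 27. Necab1, a neuronal calcium-binding protein, had 583 CPM in wild-type D2 cell 3 and 0 in wild-type D1 cell 13, and averaged 262 CPM in cells with Drd1 reads against 28.8 CPM in cells without. Wnt4, a secreted ligand of the Wnt pathway, was read in 7 of 7 cells with Drd1 reads and 10 of 27 without, at means of 137 and 30.6 CPM. Dkkl1, a secreted protein related to the Wnt inhibitors of the Dickkopf family, was read in 7 of 7 and 8 of 27, at 105 and 21.8 CPM. The differences of these 5 genes were 4.29 for Gnb4, 4.82 for Itpk1, 4.53 for Necab1, 4.30 for Wnt4 and 4.84 for Dkkl1, and the classes overlapped for each.

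The remaining genes named as higher had other roles. Sccpdh, a probable oxidoreductase, was the most abundant, at 182 to 1141 CPM (median 476) in cells with Drd1 reads against 0 to 1250 CPM (median 49.5) in cells without. Zmat1, a zinc finger protein on the X chromosome, averaged 174 CPM in cells with Drd1 reads and 27.4 CPM in cells without. The actin-binding protein Cotl1, the RNase P subunit Pop7 and the Golgi membrane protein Tmbim4 differed by 3.84, 3.99 and 3.87 log2 units. Ptgs1, a cyclooxygenase, averaged 91.4 CPM in cells with Drd1 reads, where it was read in 5 of 7, against 2.57 CPM in cells without, where it was read in 3 of 27, a difference of 4.19. Ptgs1 is also known from microglia. It was at 0 in wild-type D1 cell 8 and Fmr1-/y D2 cell 2, the 2 cells of the 7 with the lowest microglial scores. It was at 258 CPM in wild-type D1 cell 13 (score 8.14), but at 7.19 CPM in cell 12 (4.79) and 140 CPM in cell 15 (3.21). Cells without Drd1 reads had microglial scores of up to 8.45 and at most 62.0 CPM of Ptgs1. Whether its reads came from microglia was not tested.

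Genes that were lower in cells with Drd1 reads were mostly at 0 there. Ndst3, which modifies heparan sulfate, had 138 CPM in wild-type D1 cell 12, 347 CPM in wild-type D1 cell 15, 10.9 CPM in Fmr1-/y D2 cell 1 and none in the other 4, against a read in 26 of 27 cells without Drd1 reads and a median of 305 CPM. Its difference was -5.03 log2 units. Inha, the inhibin alpha subunit, reached at most 6.30 CPM in 3 of 7 cells with Drd1 reads and was read in 23 of 27 cells without, at a median of 86.6 CPM, a difference of -4.86. Plekha6, a pleckstrin homology domain protein, was read in 2 of 7 and 26 of 27 cells, a difference of -4.61. Stxbp6, a protein that binds SNARE complexes, was read in 1 of 7 and 17 of 27.

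Several of these genes had no read at all in the 7 cells. Coro6, an actin-binding coronin, was read in none of the 7 cells with Drd1 reads. It was read in 17 of the 27 cells without (3 of 11 D1 cells and 14 of 16 D2 cells). Its summed CPM was at least 1535-fold lower against a floor of 3 counts over the 7 cells. The difference was -4.06 log2 units, but -1.37 among wild-type D1 cells. Parm1, a gene of the pyramidal tract list, was read in none of the 7 and in 16 of the 27 (4 of 11 D1 cells and 12 of 16 D2 cells), at least 1380-fold lower in summed CPM. Prkdc, the catalytic subunit of the DNA-dependent protein kinase, was read in none of the 7 and in 19 of the 27 (6 of 11 D1 cells and 13 of 16 D2 cells). It was at least 960-fold lower in summed CPM. The sodium-proton exchanger Slc9a8 and the deubiquitinase Usp28 were each read in 1 of the 7, and the septin Sept4 in 2. Their differences were -3.92, -3.91 and -4.23 log2 units. Usp28 differed by -0.55 among wild-type D1 cells and by -2.07 within label and genotype. Sept4 was at 735 CPM in wild-type D1 cell 15 and 220 CPM in wild-type D2 cell 3. It differed by -0.895 among wild-type D2 cells. Under the D2 label all 16 cells without Drd1 reads held Sept4, and under the D1 label 6 of 11 did. Galnt2, an enzyme that starts O-linked glycosylation, was read in 2 of the 7 and differed by -3.93. However, 3854 of its 4282 exon bases are shared with a read-through gene on the same strand, so its count is uncertain.

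**Figure D2:**
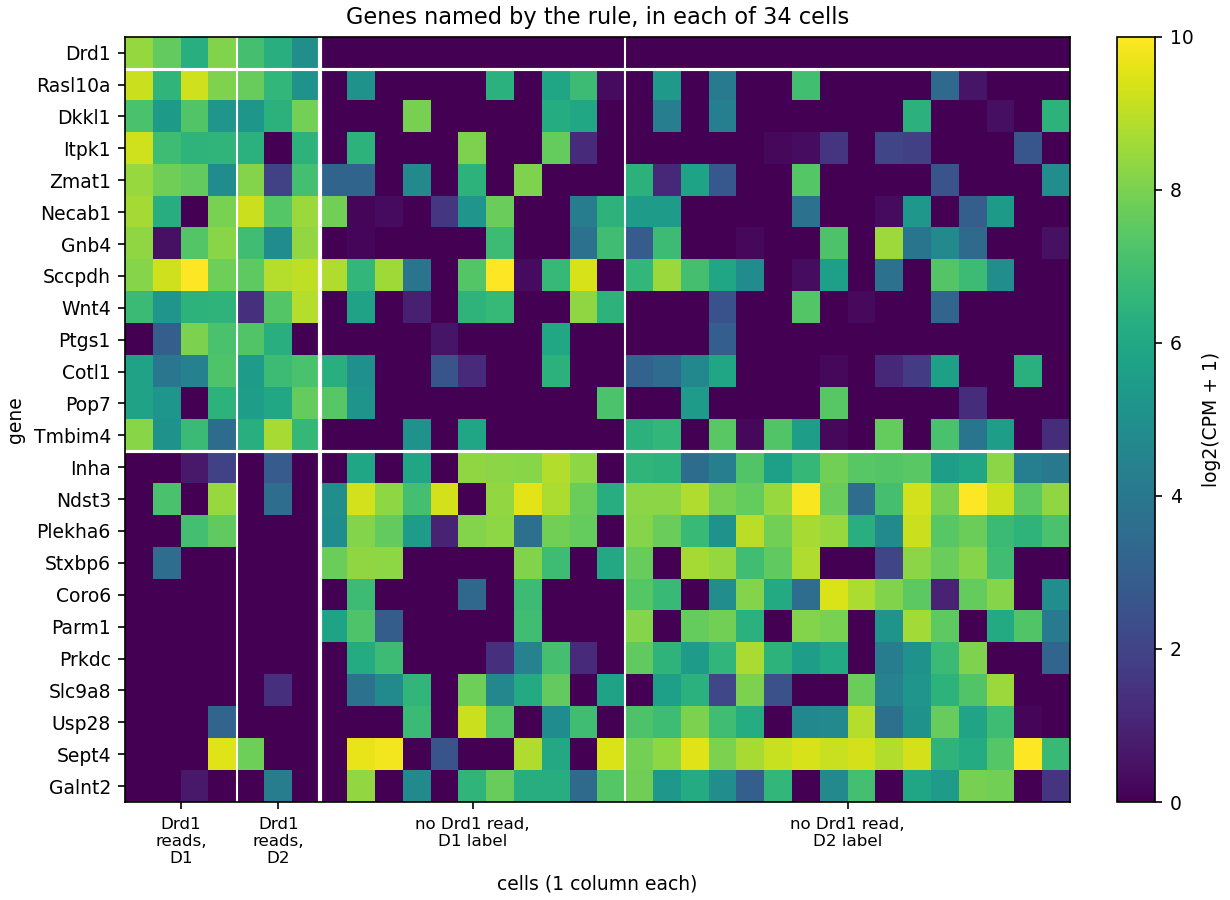
Levels of Drd1, the 12 genes named as higher and 11 of the 12 named as lower, as log2(CPM + 1), with 1 column for each of the 34 cells. Cells with Drd1 reads stand on the left, and each of these 7 had a read of 10 to 12 of the higher genes, against 1 to 9 in cells without.

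The number of named genes read in a cell without Drd1 reads was also counted by label. Of the 12 higher genes, a median of 5 had a read in the 11 D1 cells without Drd1 reads and 5.5 in the 16 D2 cells without. Single genes differed more by label, with Tmbim4 read in 2 of those D1 cells and 12 of those D2 cells, and Wnt4 in 6 and 4. Of the 12 lower genes, a median of 7 had a read in those D1 cells and 11 in those D2 cells. In cells with Drd1 reads, 0 to 5 of the lower genes had a read. These genes were chosen for their difference, so the counts describe them and support nothing further.

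Genes whose level varied with that of Drd1 were also ranked over all 34 cells. The highest Pearson correlations of log2(CPM + 1) with Drd1 were those of Rasl10a (0.71), Cdh12 (0.70), Cpxm2 (0.68), Ptgs1 and Zfp941 (0.67 each), Itpk1 (0.65), Apod and Nell1 (0.64 each). By Spearman correlation Zfp941, at 0.79, stood above Rasl10a, at 0.68. The points of each correlation share their libraries and depth, and 27 of them are at 0 for Drd1. Over 11054 genes read in at least 6 cells the median correlation was -0.003, with 15 genes at 0.6 or more and 2 at -0.6 or less, the lowest being Inha at -0.61. Cdh12, a cadherin, had 252 CPM in wild-type D1 cell 12 and 0 to 75.8 CPM in the other 6 cells with Drd1 reads, against at most 28.6 CPM in 4 of 27 cells without. Nell1, a secreted glycoprotein, was read in 6 of 7 cells with Drd1 reads at up to 301 CPM, and in 10 of 27 cells without at up to 168 CPM. Apod, a lipid carrier, was read in 4 of 7 cells with Drd1 reads and reached 85.4 CPM in wild-type D1 cell 15. It was at most 0.34 CPM in any cell without Drd1 reads, and its Spearman correlation was 0.42. Among wild-type D2 cells Apod, Cpxm2 and Nell1 differed by 0, -0.29 and -1.62, so these genes did not keep 1 sign in every group.

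Markers of layer 5 pyramidal tract neurons were lower in cells with Drd1 reads. Of 11 markers, all measured, 9 were lower and 2 higher, 5 of them at least 2 log2 units lower, and their median difference was -1.62, beside -0.02 and 4.86% of all genes at least 2 units lower. Bcl11b was at 234 CPM in wild-type D2 cell 3, at 6.81 CPM in wild-type D1 cell 12 and at 0 in the other 5 cells with Drd1 reads, against a read in 21 of 27 cells without and a median of 92.2 CPM. Its difference was -3.86. Fezf2, which specifies subcortical projection neurons, had 69.6 CPM in wild-type D2 cell 3, 136, 99.8 and 469 CPM in wild-type D1 cells 8, 12 and 15, and 0 in the other 3 cells with Drd1 reads, against a median of 264 CPM in cells without, a difference of -2.87. Npr3, a natriuretic peptide receptor, was read in 1 of 7 and 16 of 27 cells, a difference of -2.53. Crym, a thyroid hormone-binding protein, differed by -2.60, and by -1.62 without wild-type D1 cell 13 and -1.69 without wild-type D1 cell 8. Pou3f1 differed by -1.62, Sulf2 by -0.78, Ldb2 by -0.65 and Bcl6 by -0.22, while Npnt and Diaph3 were higher by 0.34 and 1.18.

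The cells with Drd1 reads were not uniform in these markers. The pyramidal tract score was 5.87 in wild-type D2 cell 3, which held Bcl11b, Npr3 at 155 CPM and Crym at 611 CPM, and 1.29 to 4.15 in the other 6. The mean was 2.97 ± 1.63 in cells with Drd1 reads and 4.57 ± 1.69 in cells without. Under the D1 label the score averaged 2.74 ± 1.32 in 4 cells with Drd1 reads and 3.19 ± 1.72 in 11 cells without, a difference smaller than the SD between cells. Under the D2 label it averaged 3.27 ± 2.27 in 3 cells with Drd1 reads and 5.51 ± 0.82 in 16 cells without, and Bcl11b was read in all 16 of those D2 cells but in 5 of the 11 D1 cells without Drd1 reads. The difference under the D2 label rests on the Fmr1-/y D2 cells 1 and 2, at 1.70 and 2.24, which lay below the lowest of the 16 cells without, at 3.42. The median difference of the list was -0.17 over all 54 passed cells and -2.38 without wild-type D2 cell 3.

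Markers of other pyramidal classes did not shift together. The intratelencephalic and upper-layer list had a median difference of 0.05, with 7 members higher and 6 lower of 13 measured. Lamp5 differed by -2.48, Rasgrf2 by -1.83 and Lmo4 by 1.27. Among 5 measured markers of layer 6 and near-projecting neurons, Tle4 had no read in the 7 cells and a read in 15 of 27 cells without. Its summed CPM was at least 897-fold lower, a bound that covers the counting of reads only. Oprk1, the kappa opioid receptor, was at 194, 98.9 and 29.8 CPM in wild-type D1 cells 13 and 15 and Fmr1-/y D2 cell 1 and at 0 in the other 4 cells with Drd1 reads, while the 27 cells without held it in 1 cell at 0.24 CPM.

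**Figure D3:**
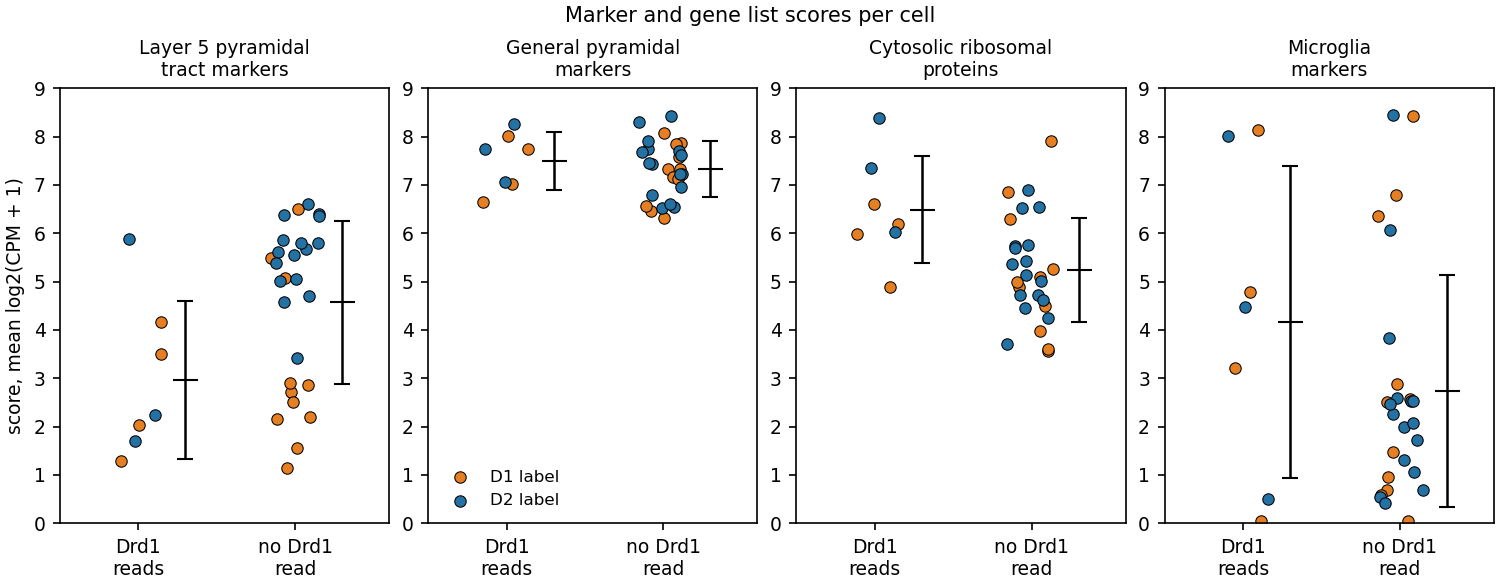
Scores per cell (mean log2(CPM + 1) over the measured members) of 4 gene lists in cells with Drd1 reads and cells without, coloured by label, with the mean and SD at the right of each class. The pyramidal tract score averaged 2.97 in cells with Drd1 reads and 4.57 in cells without, where most D2 cells lie above most D1 cells, and the general pyramidal scores of both classes cover the same range.

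The signalling pathway of the receptor did not move as a whole. Of 39 measured genes of G proteins, cyclic AMP and protein kinase A, 18 were higher and 21 lower, with a median difference of -0.08 and 4 genes at least 2 log2 units higher, beside 5.33% of all genes. These were Pde1b, a calcium-stimulated phosphodiesterase read in 6 of 7 cells with Drd1 reads and 8 of 27 without (difference 3.11), the G protein gamma subunit Gng2 (2.70), Ppp1r1a, an inhibitor of protein phosphatase (2.39), and Ppp1ca, a catalytic subunit of that phosphatase (2.19). Ppp1r1b, which encodes DARPP-32, the phosphatase inhibitor of dopamine-responsive neurons, was read in 2 of 7 cells with Drd1 reads and 13 of 27 without, a difference of -0.84. Gnal and Gnas, the stimulatory G protein alpha subunits, differed by 0.43 and 0.94, and Adcy5, an adenylyl cyclase, by -1.67. Genes of receptor trafficking and desensitisation were higher in 14 of 21 cases, beside 49.3% of all genes, with a median of 1.11, or 0.73 in wild-type cells alone. Gipc1, an adaptor of receptor endocytosis, the early endosome GTPase Rab5a and the sorting nexin Snx27 passed 2 log2 units, at 2.75, 2.69 and 2.68. These were 3 of the 21, beside 5.33% of all genes.

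Receptors, channels and peptides gave single genes past the fold rather than shifts of a list. Of 26 other neuromodulator receptor genes, 2 were at least 2 log2 units higher and 1 at least 2 units lower. Of 39 potassium channel genes it was 1 in each direction, and of 7 neuropeptide genes 1 was higher. The shares over all genes were 5.33% higher and 4.86% lower. Hrh1, a histamine receptor, was read in 5 of 7 cells with Drd1 reads at up to 529 CPM and in 2 of 27 without, at up to 1066 CPM (difference 3.37), and Hrh3, another, in 6 of 7 and 15 of 27 (2.38). The nicotinic subunit Chrnb2 differed by -2.23. Kcnh1, a voltage-gated potassium channel of the ether-a-go-go family, averaged 127 CPM in cells with Drd1 reads and 18.7 CPM in cells without, a difference of 3.91, and the potassium leak channel Kcnk1 differed by -2.37. Cck, the neuropeptide cholecystokinin, had 103 to 4613 CPM in cells with Drd1 reads and averaged 1930 CPM there against 463 CPM in cells without, a difference of 2.30.

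Sodium, HCN and calcium channel genes were mostly lower, though less so within groups. Of 30 measured members of this list, 23 were lower in cells with Drd1 reads, with a median of -0.82, which became -0.20 when cells were compared within label and genotype and -0.04 over all 54 passed cells. At least 2 log2 units lower were 3 of these 30 genes, 2 of 22 immediate early genes, 2 of 28 glutamate receptor genes and 1 of 11 genes of the FMRP list, beside 4.86% of all genes. The calcium channel subunits Cacna1d and Cacna1h differed by -3.13 and -2.24. Jun and Npas4, transcription factors induced by activity, differed by -3.15 and -2.03, in a list of 22 immediate early genes of which 15 were lower. The median of that list was -0.42, but -0.09 within label and genotype, 0.19 among wild-type D1 cells and 0.37 over all 54 passed cells. Among glutamate receptor genes Neto1, a kainate receptor auxiliary subunit, differed by -2.82 and the AMPA receptor regulator Cacng3 by 2.18. Gria3 differed by -2.17, but by -1.02 without wild-type D1 cell 13. Of the FMRP list, Tnrc6a differed by -2.25.

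**Figure D4:**
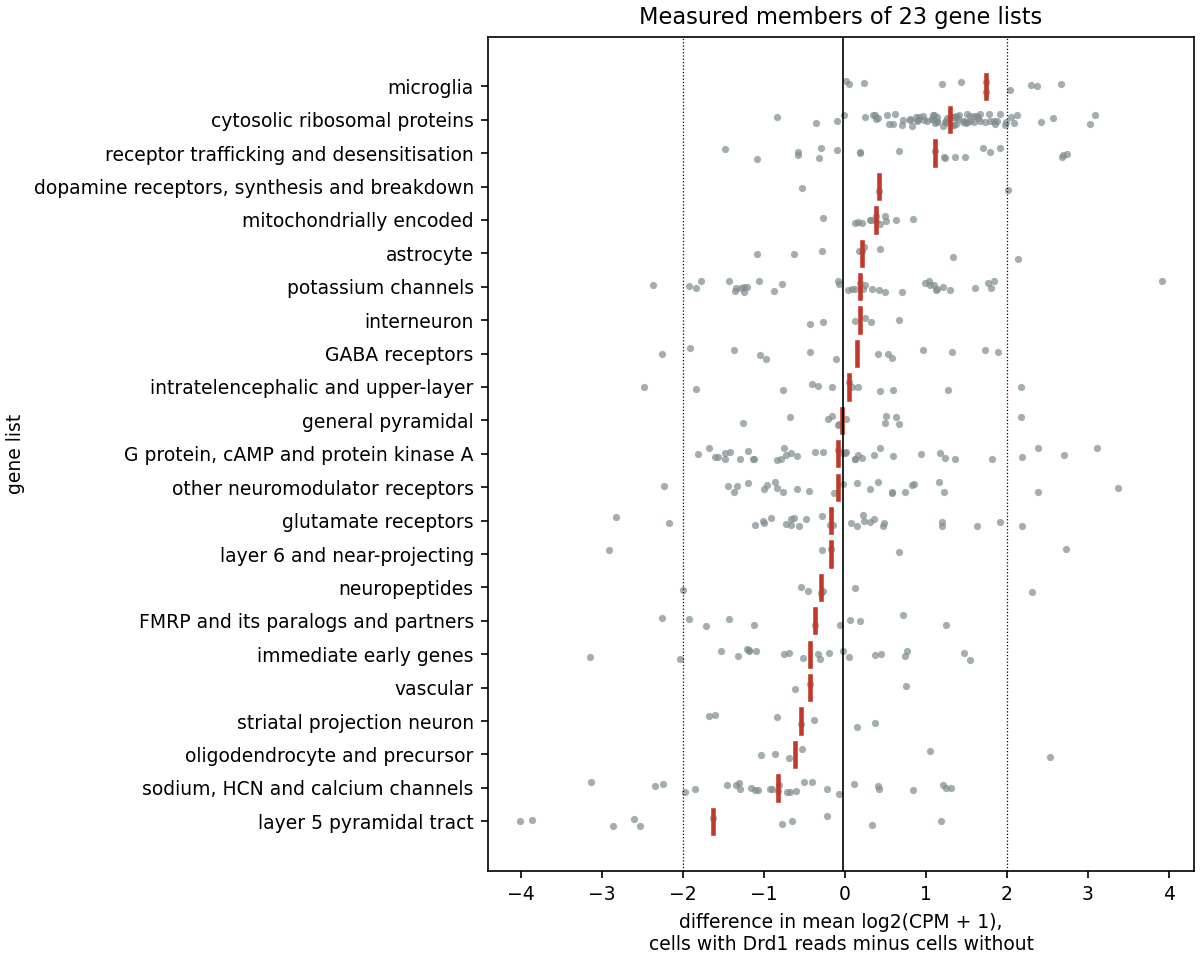
Difference in mean log2(CPM + 1) between cells with Drd1 reads and cells without, for each measured member (grey points) of 23 gene lists, with the list median in red, the median of all genes as a solid line and 2 log2 units in either direction dotted. The microglial, ribosomal protein and receptor trafficking lists have the highest medians (1.74, 1.30 and 1.11) and the pyramidal tract list the lowest (-1.62).

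Lists that speak of other cells or of the RNA itself also moved with the classes. All 11 measured microglial markers were higher in cells with Drd1 reads, 4 of them at least 2 log2 units higher, beside 5.33% of all genes, with a median difference of 1.74. Their summed level was 0.32 to 4103 CPM in cells with Drd1 reads and 0.45 to 10595 CPM in cells without. The microglial score was 8.14 and 8.02 in wild-type D1 cell 13 and Fmr1-/y D2 cell 1, 3.21 to 4.79 in 3 others, and 0.51 and 0.04 in Fmr1-/y D2 cell 2 and wild-type D1 cell 8, which had no read of C1qa, Csf1r, P2ry12 or Cx3cr1 and held Rasl10a at 34.0 and 589 CPM. The median was 0.92 without wild-type D1 cell 13 and -0.10 within wild-type D1 cells. Cytosolic ribosomal protein genes were higher in 73 of 77 cases, 7 of them at least 2 log2 units higher, beside 5.33% of all genes, with a median of 1.30 and scores of 6.49 ± 1.12 in cells with Drd1 reads and 5.24 ± 1.08 in cells without. Rpl22, Rpl7a and Rpl5 led, at 3.09, 3.03 and 2.56, and the median was 0.65 in wild-type cells alone. The part of the microglial and ribosomal levels in the other differences was not tested.

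Markers of further cell types showed smaller medians. These were 0.21 for astrocytes, where Glul stood out at 2.14, -0.61 for oligodendrocytes and their precursors, where Mobp stood out at 2.53, 0.18 for interneurons, -0.55 for striatal projection neurons and -0.43 for vascular cells. Slc32a1, the vesicular GABA transporter gene of interneurons, and Pdyn, a peptide gene of striatal D1 neurons, had no read in the 7 cells with Drd1 reads. Their summed CPM in cells without was only 2.35 and 5.63. Other members of both lists were read in cells with Drd1 reads. The summed level of the interneuron list had a median of 24.9 CPM there and 12.5 CPM in cells without. That of the striatal list had medians of 355 and 435 CPM. Of measured markers, 4 of 6 for interneurons and 2 of 7 for striatal neurons were higher in cells with Drd1 reads.

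Drd1 reads also occurred below the minimum of 4000 symbols, and these cells were not part of the choice. The Fmr1-/y D2 cell 5, with 2904 symbols, had 975 Drd1 reads (106 CPM), Rasl10a at 463 CPM and Bcl11b at 502 CPM, and a read of 3 of the 12 genes named as higher. The wild-type D2 cell 19, with 1786 symbols, had 1 Drd1 read and a read of 1 of these 12 genes. The 18 cells below the minimum without a Drd1 read held a read of 0 to 4 of them, with a median of 2. The cells nearest the minimum on either side, wild-type D2 cell 25 with 3770 symbols and wild-type D1 cell 10 with 4266, had no Drd1 read.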

How the data were processed

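Libraries were made from the cytosol of 1 neuron each with Nextera XT, per the labels' protocols. The submitters' processing notes name Trimmomatic, STAR, featureCounts and the build GRCm38, without their roles, versions or use of strand. The deposited gene counts are whole-number read counts for 22800 symbols, which were the basis of all values, and for 22880 Ensembl identifiers. A deposited signal table with normalized values of 14067 symbols, the gene counts times 1 factor per cell, served as an alternative. Each of these held 2 columns that match no sample label and were not used.

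CPM were computed on each cell's summed gene counts. Differences are of mean log2(CPM + 1), cells with Drd1 reads minus cells without, for genes that averaged 1 CPM or more and were read in 10% or more of these 34 cells, and 2 log2 units is the fold used for counts. No test was made, since no animal is named and cells are not replicates. The members and the gene lists were chosen with earlier results of these data known. The genes named were those that averaged 10 CPM or more and were read in 33.3% or more of the cells of a class, with 1 sign in every label and genotype group holding both classes, and the 12 largest per direction of the smallest difference left when each cell with Drd1 reads was left out. Mitochondrial genes, Rn18s and predicted genes were passed over. To these were added the 8 genes of highest correlation with Drd1, the dopamine receptors, and up to 3 members of largest difference per list. Ppp1r1b, Gnal, Gnas, Adcy5, Slc17a7, Camk2a, C1qa, Csf1r, P2ry12, Slc32a1 and Pdyn, members of the lists outside that rule, were named after their values were seen. A few genes chosen this way are left out of the text. Intervals of shares are exact Clopper-Pearson intervals at 95%. Reads are not independent molecules, so floors of 3 counts cover counting error only.

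Total counts were 2002287 to 10673072 per cell. Positions and exon overlaps are from GENCODE vM21 and promoter windows from RefSeq in GRCm38.p6. Computations used Python 3.11.15, numpy 2.4.6, pandas 2.3.3 and scipy 1.17.1, figures matplotlib 3.10.9, and TMM factors edgeR 4.0.16 in R 4.3.3. These steps were checked on simulated counts in which 200 genes out of 22800 differed by 4 log2 units between cells with and without Drd1 reads. All of them (100%) had the right sign, and the estimates averaged 3.44 where genes were raised and -2.88 where they were lowered. The changed genes were drawn from those at 10 CPM or more in the pooled counts, and no zeros were added beyond the simulated count noise. The check thus covers the computation, and not how well differences are recovered for genes at 0 in many cells.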

Additional observations from a re-analysis of the deposited data

Results flagged for a closer look

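Among the 7 cells with Drd1 reads, 9 of 53 sets of values examined held 1 cell far from the other 6 by Dixon's criterion. For normally distributed values chance alone meets it in about 1 in 20 sets. That rate does not apply here, since many of these genes were chosen by their values in the 7 cells. Where 6 cells are at 0, any read in the remaining cell meets the criterion. Of genes named as higher, Itpk1 was at 0 in Fmr1-/y D2 cell 1, and Necab1 and Pop7 were at 0 in wild-type D1 cell 13. Nell1, one of the genes most correlated with Drd1, was at 0 in wild-type D2 cell 3. Of genes named as lower, single cells stood above the rest on the log2(CPM + 1) scale, with Stxbp6 at 3.58 in wild-type D1 cell 12, Slc9a8 at 1.36 in Fmr1-/y D2 cell 1, Usp28 at 3.27 in wild-type D1 cell 15 and Galnt2 at 4.21 in Fmr1-/y D2 cell 1. The vascular marker score of Fmr1-/y D2 cell 1 was 2.63, against at most 0.05 in the other 6. Outside the cells compared, Drd1 stood at 106 CPM in Fmr1-/y D2 cell 5, which had fewer than 4000 symbols.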

How the results depend on the processing

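No paired analysis was possible because the replicate numbers only name cells in accession order and no test was made. The counts of genes past 2 log2 units (635 higher and 578 lower) depended most on the processing. The count of lower genes was 367 with the next lower minimum of symbols tried, 49 over all passed cells and 1075 in wild-type cells alone. With the authors' normalized values 1130 genes were higher and 1065 lower, with a pseudocount of 10 CPM 48 and 44, and within label and genotype 993 were higher. The cause was not tested. Leaving out each cell with Drd1 reads gave 629 to 788 higher and 589 to 799 lower genes. The shares of cells with a Drd1 read moved by less than their interval in all 12 alternatives, and the list medians by less than the SD between cells in all 506. That SD is wide, and the pyramidal tract median still ranged from -2.38 to -0.17. Most list medians changed sign. Among them were the medians of oligodendrocytes (-0.86 to 0.69) and of dopamine receptors, synthesis and breakdown (-0.45 to 1.27). Those of general pyramidal markers (-0.19 to 0.51), glutamate receptors (-0.45 to 0.59) and GABA receptors (-0.26 to 0.93) did so too. The striatal, vascular, FMRP and sodium, HCN and calcium channel medians stayed below 0, as did that of the pyramidal tract. The microglial (0.91 to 2.43), ribosomal (0.65 to 1.62) and receptor trafficking (0.66 to 1.31) medians stayed above 0. The named and correlated genes kept their sign in the 21 alternatives run for each, and 4 of their 609 values moved by more than 1 SD, all at a pseudocount of 10 CPM: Ptgs1 to 2.24, Cdh12 to 1.77, Zfp941 to 1.89 and Apod to 1.18. For genes named by the rule, the sign was fixed in advance where a cell with Drd1 reads was left out and within label and genotype. The minimum of 10 Drd1 reads and the Ensembl counts gave the same classes, so they could not change any value. The kept sign is thus no support from these alternatives. Scaling by TMM factors, by totals without mitochondrial and Rn18s counts or by the authors' factors left the median of all genes between -0.05 and 0.01, while taking all passed cells put it at 0.37 and the comparison within label and genotype at 0.21. Leaving out cells over 10% mitochondrial counts, and keeping only ages that hold a cell with Drd1 reads, were chosen after seeing the data. With 7 cells in a class and no animal named, the spread between animals is unknown.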
